A study of Mus musculus with 6 samples.

Results

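The galectin genes of bladder epithelial preparations were read as 9 genes: Lgals1, Lgals2, Lgals7, Lgals3, Lgals4, Lgals8, Lgals9, Lgals12 and Lgals3bp. All probe sets annotated to 1 of these genes alone were taken, which gave 13 of the 45101 probe sets of the array. The family was picked partly on its DsRed contrast, whose values were already known and in which Lgals1 was among the largest decreases, and no threshold was set on a value. Their differences between the groups are therefore given as a description, with no p-value, and a statement that a galectin passed the threshold describes the fit over all probe sets.

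RNA came from mouse bladder epithelium at postnatal day 7, with FVB/N x C57BL/6 given as strain background, all labelled male, and B6;129P-Upk1btm1Zhang/J given as the allele of the reported gene on every sample. The compared groups were DsRed-positive cells (3 arrays) and DsRed-negative cells (3 arrays), each numbered 1, 2 and 5. Upk1b encodes a uroplakin of the urothelial surface, and the labels give neither its copy number in the mice nor how cells with and without DsRed were separated. RNA was amplified in 2 rounds and read on Affymetrix mouse genome arrays, without pooling of samples according to the labels.

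Galectins are lectins that bind beta-galactoside sugars on glycoproteins and glycolipids through a conserved carbohydrate recognition domain. They are made in the cytosol without a signal peptide and leave cells by an unconventional route, so they act both inside cells and, by cross-linking glycans, at the cell surface and in the matrix. Lgals1, Lgals2 and Lgals7 encode the prototype class with a single such domain, Lgals3 the chimera class with an added collagen-like tail, and Lgals4, Lgals8, Lgals9 and Lgals12 the tandem-repeat class. Lgals3bp is not a galectin but a secreted glycoprotein that galectins bind.

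Promoters of 7 of the 9 genes were found in the RefSeq table of build GRCm38.p6, each window running from 250 bases before the annotated start to 50 after it. The promoters of Lgals3 and Lgals9 are shown because these genes passed the threshold in opposite directions. The capitals mark matches on either strand to a TATA box (TATAAA), a GC box (GGGCGG), an AP-1 site (TGANTCA) or an interferon-stimulated response element (GAAA and GAAA with any 2 bases between them). The Lgals3 window lies at chr14:47373610-47373909 on the plus strand and the Lgals9 window at chr11:78984875-78985174 on the minus strand, both written 5′ to 3′ along the gene.
Lgals3 promoter: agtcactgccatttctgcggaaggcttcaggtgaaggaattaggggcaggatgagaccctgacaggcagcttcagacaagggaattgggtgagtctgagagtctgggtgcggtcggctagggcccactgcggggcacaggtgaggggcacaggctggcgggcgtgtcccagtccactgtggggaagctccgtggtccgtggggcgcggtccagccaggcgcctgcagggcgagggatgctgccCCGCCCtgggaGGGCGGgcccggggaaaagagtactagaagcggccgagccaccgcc
Lgals9 promoter: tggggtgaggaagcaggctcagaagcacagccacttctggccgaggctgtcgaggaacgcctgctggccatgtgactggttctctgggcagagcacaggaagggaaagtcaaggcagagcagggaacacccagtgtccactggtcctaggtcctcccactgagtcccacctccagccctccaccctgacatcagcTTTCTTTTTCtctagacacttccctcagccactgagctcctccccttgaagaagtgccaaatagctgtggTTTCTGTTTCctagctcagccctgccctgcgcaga

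The Lgals3 window held 2 GC boxes, the first base of which lay at -7 and 5 relative to the start, and none of the other motifs. A GC box was present in 35.7% of 32851 promoter windows of the table. The window was 67.0% G and C with 18 CG dinucleotides, where the median window had 52.7% and 7. The Lgals9 window held 2 matches to the interferon-stimulated response element, at -55 and 16, and such a match was present in 3.44% of all windows. It was 58.0% G and C with 4 CG dinucleotides. None of the matches overlapped another, and the windows of Lgals2, Lgals8 and Lgals3bp held none of the 4 motifs. A match is a run of letters and not a measured binding site.

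Before the galectin values, the arrays were set against their labels. Xist, the transcript of the inactive X chromosome, read 28183 in DsRed-positive 1 and 45699 in DsRed-negative 1, against at most 546 on the other 4 arrays, and the Y-linked Eif2s3y read 31.2 and 3.83 on the arrays numbered 1, against at least 3309 on the others. The male label thus went against the signal on both arrays numbered 1, and values without them are given below. The 5 superficial urothelial markers and the 6 general epithelial markers were all higher in DsRed-positive cells, and the 7 fibroblast and matrix markers were all lower. The labelled cell type, bladder epithelial cell, was matched by its markers in the DsRed-positive arrays, where the general epithelial markers summed to 287482 to 478255, against 38899 to 94784 in the DsRed-negative arrays. The fibroblast and matrix markers summed to 14130 to 27133 in DsRed-positive and 577072 to 1410679 in DsRed-negative arrays, so the DsRed-negative RNA was not that of epithelium alone. Arrays of a group correlated at 0.921 to 0.940 (DsRed-positive) and 0.845 to 0.892 (DsRed-negative) over the probe sets tested.

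Lgals1 was far lower in DsRed-positive than in DsRed-negative cells. Lgals3 was well above the control level in both groups and higher in DsRed-positive cells. Lgals9 was lower in DsRed-positive cells, where it lay under the control level. The other 6 genes, Lgals2, Lgals4, Lgals7, Lgals8, Lgals12 and Lgals3bp, had groups that overlapped. Of the 9 genes, each represented by its brightest probe set, 1 passed the threshold as higher and 2 as lower, where 20.5% of 14222 genes tested passed in either direction, 9.21% as higher and 11.3% as lower. The threshold was an adjusted p under 0.05 by limma with Benjamini-Hochberg adjustment over 30175 probe sets. The groups did not overlap for 3 of the 9 genes, against 43.4% of all genes tested. The median difference was 0.27 over the 9 genes and 0.04 over all genes tested, on the normalized log2 scale. In such bulk samples, fewer cells of a type and less RNA per cell cannot be told apart.

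**Figure D1:**
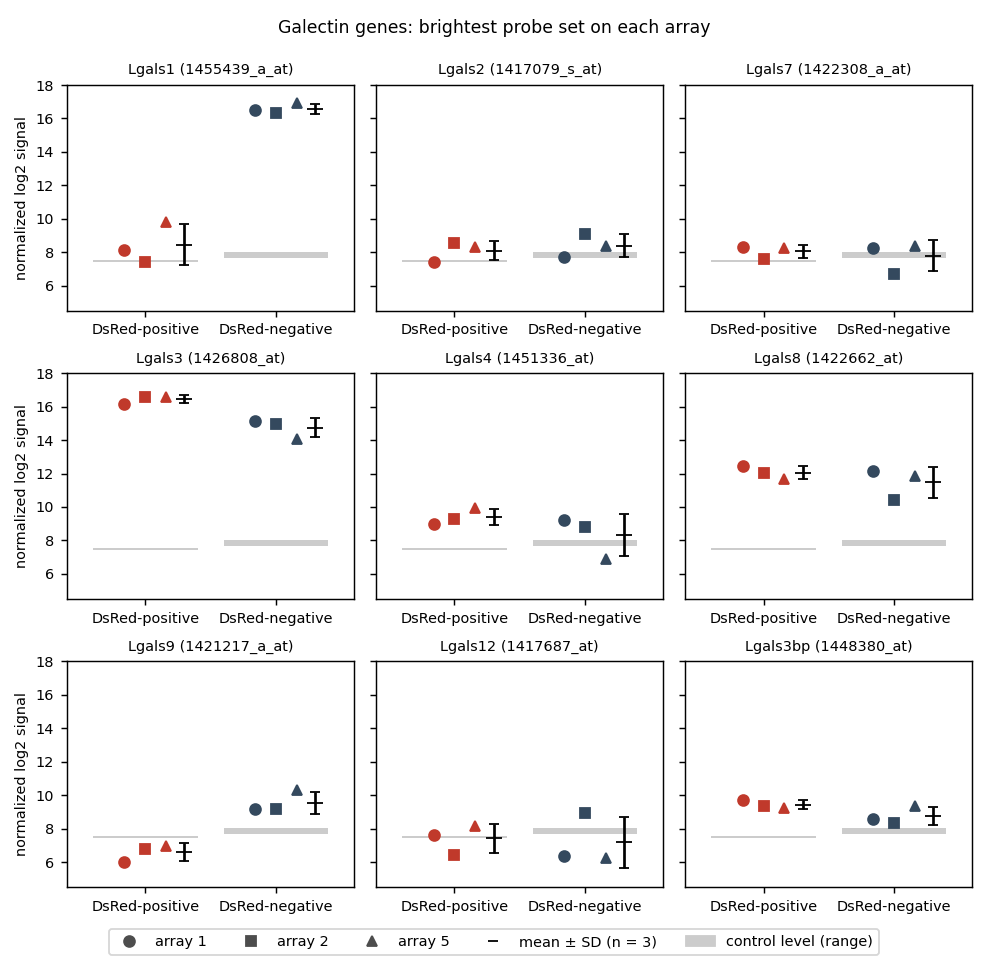
Normalized log2 signal (y axis) of the brightest probe set of each of the 9 genes on 3 DsRed-positive (red, left) and 3 DsRed-negative (dark, right) arrays, with the mean ± SD beside each group and the control level of the arrays as a grey band. Lgals1 lay between 7.43 and 9.81 in DsRed-positive and between 16.34 and 16.90 in DsRed-negative arrays, Lgals3 was well above the control level in both groups, and Lgals9 lay under it in all 3 DsRed-positive arrays. Levels of different probe sets are not comparable.

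Of the prototype galectins, Lgals1 encodes a dimer known from fibroblasts, smooth muscle and endothelium. Its brightest probe set had a deposited signal of 178, 99.8 and 839 in DsRed-positive arrays 1, 2 and 5, against 89587, 122194 and 191551 in DsRed-negative arrays 1, 2 and 5. DsRed-positive 5 stood highest in its group and DsRed-positive 2 lowest, and no array of either group came near the other group. On the normalized log2 scale the signal was 8.45 ± 1.23 in DsRed-positive and 16.57 ± 0.29 in DsRed-negative arrays (SD, n = 3 each), a difference of -8.12 ± 0.61 (SE), or 279-fold lower. The second probe set read 132, 105 and 597 in DsRed-positive arrays, against 28723, 26410 and 51189 in DsRed-negative arrays. Its difference was -6.75 ± 0.55, a 108-fold lower signal, so that the size depended on the probe set while the direction and the order of the DsRed-positive arrays were shared. Both probe sets lay under the control level in DsRed-positive 2. With every value raised to at least the control level of its array, the differences were -8.08 and -6.72.

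The spread of Lgals1 lay mainly within the DsRed-positive group. Leaving out DsRed-positive 5 gave -8.80 and -7.30 for the brightest and the second probe set, and leaving out DsRed-positive 2 gave -7.58 and -6.33. Without both arrays numbered 1 the differences were -8.24 and -6.66. On the deposited scale, the fibroblast and matrix markers summed to 15787, 14130 and 27133 in DsRed-positive arrays 1, 2 and 5. The order of this sum was that of Lgals1. Col3a1 was its largest part (8712, 6764 and 15368), and Dcn and Pdgfra had the same order. Col1a1, Col1a2 and Postn were lowest on array 1 instead, and Lum ran in the opposite order (476, 689 and 152). In DsRed-negative arrays 1, 2 and 5 the sum was 577072, 1410679 and 1085505, where the order was not that of Lgals1. Differences of the 7 fibroblast and matrix markers ran from -6.91 for Pdgfra, a receptor of platelet-derived growth factors, to -4.26 for the collagen chain Col3a1. The 6 smooth muscle markers summed to 1950 to 2830 in DsRed-positive and 96641 to 187415 in DsRed-negative arrays, where Acta2 was the largest part (85444 to 165995). Of the 6, 4 were called lower and Des overlapped between the groups. Cnn1 did not pass the filter and lay under the control level in all DsRed-positive arrays. The 6 endothelial markers summed to 879 to 1116 in DsRed-positive and 5952 to 10505 in DsRed-negative arrays, with Tie1 under the control level in all DsRed-positive arrays. Of the 6, 3 were called lower and Kdr was not called. Tie1 and Pecam1 did not pass the filter, and Pecam1 overlapped between the groups. The part of these cell types in the Lgals1 difference was not tested.

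Lgals2, a prototype galectin known from the gut, read 99.1, 268 and 249 in DsRed-positive arrays, against 203, 610 and 350 in DsRed-negative arrays on its brighter probe set. The groups overlapped, and the difference of -0.30 ± 0.48 had the other sign without DsRed-positive 1 (0.03) and without DsRed-negative 2 (0.04). Its second probe set, with a difference of -0.93 ± 0.66, stood above the control level on 1 array of each group. Lgals7, a galectin of stratified epithelia such as epidermis, read 209, 119 and 242 in DsRed-positive arrays, against 311, 84.6 and 350 in DsRed-negative arrays. The difference was 0.27 ± 0.52, and it turned to -0.27 without DsRed-negative 2 and to -0.20 on the values before normalization. Markers of basal and stratified epithelium were higher in DsRed-positive cells for 4 of 5 genes, with a sum of 34446 to 41566 in DsRed-positive and 5023 to 8448 in DsRed-negative arrays, while Lgals7 stayed close to the control level in both groups. In the RefSeq gene order, no protein-coding gene lies between Lgals4 and Lgals7, and 3 lie between Lgals1 and Lgals2.

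Lgals3, the chimera galectin, is abundant in many epithelia, where it takes part in apical sorting of glycoproteins, and is also made by macrophages, in which it was first named Mac-2. Its only probe set read 44028, 91329 and 88991 in DsRed-positive arrays 1, 2 and 5, against 36419, 34340 and 16944 in DsRed-negative arrays 1, 2 and 5. The groups did not overlap, and DsRed-negative 5 was the lowest of all 6 arrays. DsRed-positive 1 and DsRed-negative 1 were close on the deposited scale, but stood at 16.15 and 15.14 on the normalized log2 scale. The normalized log2 signal was 16.43 ± 0.24 in DsRed-positive and 14.73 ± 0.57 in DsRed-negative arrays (SD, n = 3 each), a difference of 1.70 ± 0.40 (SE), or 3.26-fold higher. The signal of the DsRed-negative arrays was itself far above their control levels, which were 7.69 to 8.03.

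Whether Lgals3 passed the threshold depended on the arrays and settings used. It did not pass without DsRed-positive 1 (difference 1.99), DsRed-positive 2 (1.66), DsRed-positive 5 (1.65) or DsRed-negative 5 (1.31), nor before normalization (1.36). It passed without DsRed-negative 1 (1.92) or DsRed-negative 2 (1.71). Without both arrays numbered 1 the difference was 2.26 and did not pass. The direction was the same in all of these. General epithelial markers summed to 287482, 478255 and 443744 in DsRed-positive arrays 1, 2 and 5, and to 94784, 48237 and 38899 in DsRed-negative arrays 1, 2 and 5. On the deposited scale, the order of Lgals3 over the arrays of each group was that of these sums. Krt8, Krt18 and Krt19 shared it, while Epcam departed from it in DsRed-positive arrays, Krt7 in DsRed-negative arrays and Cdh1 in both. On the normalized scale Lgals3 was 16.56 in DsRed-positive 2, 16.58 in DsRed-positive 5 and lowest in DsRed-positive 1 (16.15). There Epcam (15.61), Cdh1 (16.17) and Krt19 (16.41) were highest in their group. Krt8 was lowest there (16.94), and Krt7 and Krt18 were nearly level over DsRed-positive 1 and 2. Unlike Lgals3, the sum of the 11 macrophage and leukocyte markers was lower in the DsRed-positive arrays, at 3137 to 6428 against 30078 to 40236 in DsRed-negative arrays. Of these markers 6 were called lower, while Cd68, Fcer1g, C1qa and Itgam overlapped between the groups. Itgam lay under the control level in all DsRed-positive arrays. The part of epithelial cells and macrophages in the DsRed-negative Lgals3 signal was not tested.

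**Figure D2:**
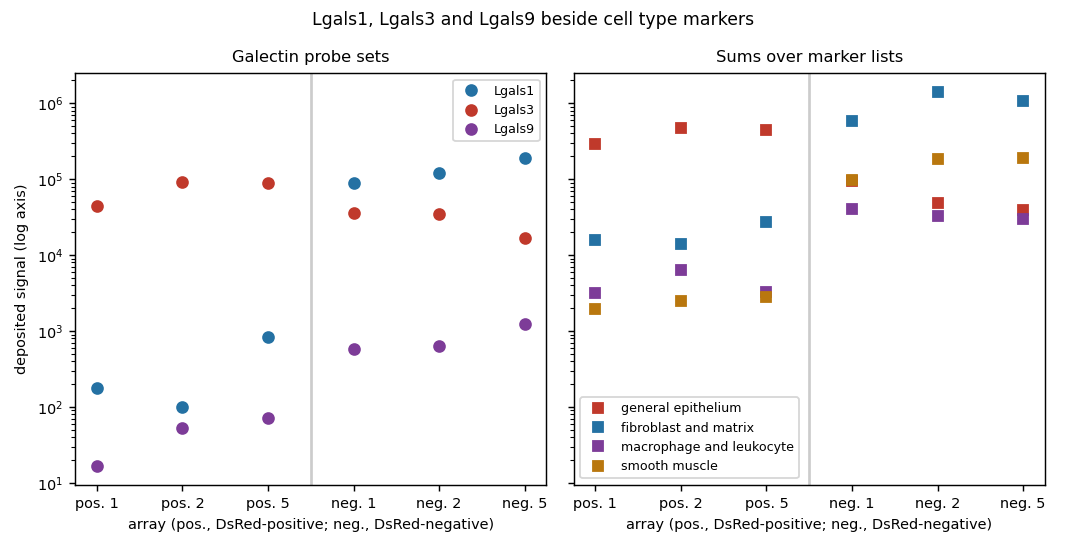
Deposited signal on a log axis (y) of the Lgals1, Lgals3 and Lgals9 probe sets (left panel) and sums over 4 marker lists (right panel) on each array (x), with the 3 DsRed-positive arrays left of the 3 DsRed-negative ones. Lgals3 differed far less between the groups than Lgals1, and in DsRed-positive cells the highest Lgals1 signal (839) and the highest fibroblast and matrix sum (27133) fell on array 5.

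Of the tandem-repeat galectins, Lgals9, which binds the immune receptor encoded by Havcr2 and is induced by interferon in several cell types, was the one that separated the groups. It read 16.8, 52.3 and 70.8 in DsRed-positive arrays, against 574, 639 and 1245 in DsRed-negative arrays. All DsRed-positive values lay under the control level of their arrays (106 to 113 on the deposited scale), and all DsRed-negative values lay above theirs (203 to 268). The normalized log2 signal was 6.58 ± 0.53 in DsRed-positive and 9.53 ± 0.65 in DsRed-negative arrays (SD, n = 3 each), and the fitted difference was -2.95 ± 0.46 (SE). Because the DsRed-positive values carry only a bound, Lgals9 was at least 4.11-fold lower in DsRed-positive cells. Its mean over all 6 arrays, 8.06, passed the filter of 7.18 through the DsRed-negative arrays. With each single array left out in turn the fitted difference ran from -3.16 to -2.57, values that rest on DsRed-positive signal under the control level. Without both arrays numbered 1 it was -2.85 and did not pass the threshold. The macrophage and leukocyte sums given above for Lgals3 were, like Lgals9, lower in all DsRed-positive than in all DsRed-negative arrays, although Cd68, Fcer1g, C1qa and Itgam overlapped between the groups. In DsRed-negative arrays 1, 2 and 5 the sum was 40236, 32433 and 30078, so DsRed-negative 5 had the highest Lgals9 signal and the lowest sum. Laptm5 was the largest part of that sum (22030, 14927 and 12065). The single markers were divided. Csf1r, Adgre1, Cd68 and C1qa were highest on DsRed-negative 5, as Lgals9 was. Ptprc, Laptm5, Itgam, Tyrobp, Fcer1g and Lyz2 were lowest there, and C1qb lay between the other arrays. The part of these cells was not tested.

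Lgals8, a galectin that binds integrins and marks damaged vesicles, read 6183, 4189 and 3312 in DsRed-positive arrays, against 4385, 1393 and 3433 in DsRed-negative arrays on its brighter probe set. DsRed-negative 2 stood apart as the lowest, and the other 5 arrays overlapped. The difference was 0.59 ± 0.52 and shrank to 0.06 without DsRed-negative 2. The second probe set gave 0.75 ± 0.45 with all arrays and 0.43 without DsRed-negative 2. Both probe sets were above the control level on all 6 arrays, and neither passed the threshold.

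Lgals4, an intestinal galectin linked to apical transport of glycoproteins, read 382, 487 and 935 in DsRed-positive arrays, against 605, 510 and 96.4 in DsRed-negative arrays. The low value of DsRed-negative 5, under its control level, set much of the difference of 1.09 ± 0.64, which was 0.39 without that array. Some mouse strains carry a near-identical copy of this gene, Lgals6, and its signal on this probe set cannot be told apart from that of Lgals4. Lgals12, a galectin known from adipocytes, read 118, 34.5 and 216 in DsRed-positive arrays, against 52.7, 563 and 43.9 in DsRed-negative arrays, with 3 of 6 arrays above the control level. Its difference of 0.24 ± 0.80 had the other sign as deposited, before normalization (-0.21), without DsRed-positive 5 (-0.12), DsRed-negative 1 (-0.19) or DsRed-negative 5 (-0.24), and without both arrays numbered 1 (-0.30). The second Lgals12 probe set lay under the control level on all 6 arrays and was the 1 of the 13 that did not pass the filter. Of the adipocyte markers, Adipoq lay under the control level in all DsRed-positive arrays and Lep in all arrays, whereas Fabp4, a fatty acid binding protein that is also made outside fat, differed by 3.65.

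Lgals3bp, the secreted galectin-binding glycoprotein, read 759, 520 and 524 in DsRed-positive arrays, against 390, 374 and 698 in DsRed-negative arrays. DsRed-negative 5 lay inside the range of the DsRed-positive arrays, and the difference was 0.67 ± 0.39, which did not pass the threshold. Without DsRed-negative 5 it was 0.99, and before normalization 0.31.

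**Figure D3:**
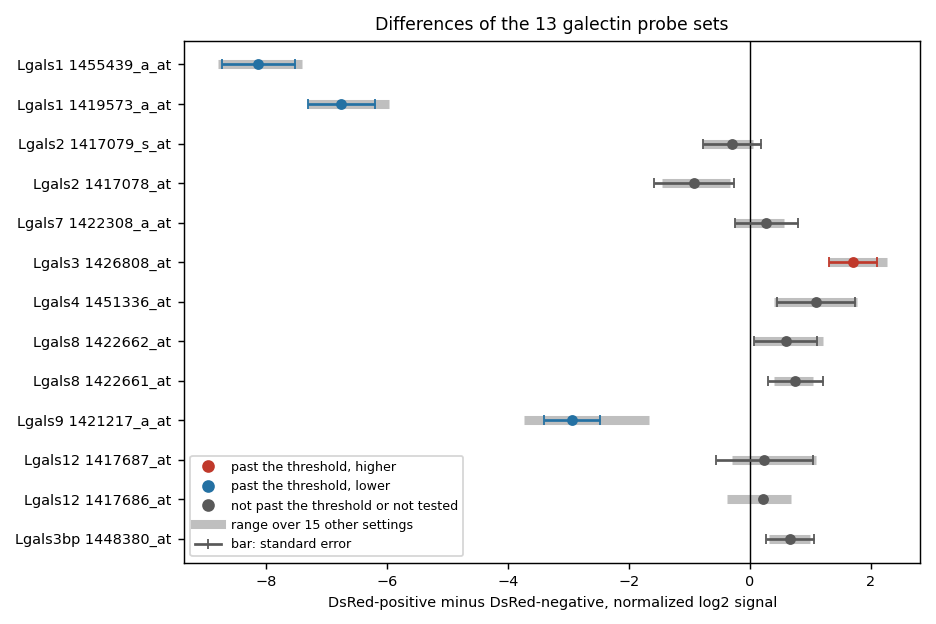
Difference in normalized log2 signal, DsRed-positive minus DsRed-negative (x axis), for the 13 galectin probe sets (rows), with standard errors as bars and the range over 15 other settings or sets of arrays in grey. Both Lgals1 probe sets and Lgals9 stayed below 0 and Lgals3 above 0 throughout, while the ranges of Lgals7, Lgals12 and 1 probe set of Lgals2 crossed 0; the second Lgals12 probe set was not tested and has no bar.

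Relatives outside the list were read for comparison. Lgalsl, a galectin-like gene whose human product lacks lactose binding, had a difference of 0.03 ± 0.34 on one probe set and 0.11 ± 0.36 on the other, with signals of 7036 to 12445 in DsRed-positive and 7896 to 9057 in DsRed-negative arrays on the brighter. Grifin, a galectin-related gene of the lens, read 94.9 to 242 in DsRed-positive and 313 to 412 in DsRed-negative arrays, a difference of -0.47 ± 0.39. Neither passed the threshold.

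The genes whose pattern over the 6 arrays lay closest to each galectin were ranked among 14213 genes by the root mean square distance between log2 patterns centred on their means. For Lgals1 these were Klhl13 (0.34), an adaptor of ubiquitin ligases, the collagen chain Col12a1 (0.36) and the matrix protease Mmp2 (0.38). For Lgals3 they were Itgb6 (0.12), an epithelial integrin chain, Anxa4 (0.12), a calcium-dependent membrane-binding protein, and Alcam (0.16), a cell adhesion molecule. For Lgals9, whose pattern rests on signal under the control level in all DsRed-positive arrays, they were Syt7 (0.15), Col2a1 (0.21) and Cgref1 (0.23). Lgals8 lay closest to Shroom4 (0.14), Xpot (0.16) and 1810030O07Rik (0.16), and Lgals3bp to Magi1 (0.09), Itfg1 (0.10) and Selenok (0.13). The 4 remaining genes, most of them near the control level, lay closest to Cngb1, Igkv9-120 and Tcl1b3 (Lgals2), Zfp275, Traip and Nedd1 (Lgals7), Zfp820, Trim37 and Pcm1 (Lgals4), and Stil, Ddx59 and Ifi27l2b (Lgals12), at distances of 0.10 to 0.42. These are likenesses over 6 arrays in 2 groups and carry no test.

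The known ligands and receptors of galectins were read as a list of 21 genes, 19 of which passed the filter. The list was chosen with earlier results of these data known, so its adjusted p values describe the fit over all probe sets. Of these, 7 were lower in DsRed-positive cells, 1 was higher and 11 did not pass, with a median difference of -0.68 against 0.04 over all genes tested; the shares over all genes tested were 11.3% lower and 9.21% higher. Fn1, the matrix ligand fibronectin, fell to a normalized log2 signal of 9.88 ± 0.68 in DsRed-positive cells, against 16.39 ± 0.09 in DsRed-negative cells, a difference of -6.51 ± 0.42 (SE, adjusted p = 1.16e-04 by limma). Nrp1, a co-receptor of vessels and axons that binds galectin-1, changed by -5.74 ± 0.50 (adjusted p = 3.74e-04). Thy1, a glycoprotein of fibroblasts and T cells, was at least 22.9-fold lower, with all DsRed-positive arrays under the control level (adjusted p = 5.83e-04). Ptprc, the common leukocyte antigen, read 9.33 to 108 in DsRed-positive arrays, of which only DsRed-positive 1 lay above the control level, against 1961 to 3956 in DsRed-negative arrays. Its fitted difference was -5.09 ± 0.57 (adjusted p = 0.00109), and -3.93 with values raised to the control level. Thy1 and Ptprc averaged 6.81 and 6.34 in DsRed-positive arrays and passed the filter of 7.18 through the DsRed-negative arrays. Their adjusted p values carry that limit as well and are no independent support. Averaged over every probe set of the gene, the differences were -4.06 for Fn1, -3.35 for Nrp1 and -2.61 for Ptprc. The other lower genes, named after their values were seen, were Cspg4 (-2.75), the hyaluronan receptor Cd44 (-2.56) and the integrin chain Itgav (-1.29, adjusted p = 0.0319). Itgav missed the threshold whichever array was left out, with adjusted p up to 0.106, with median centring (0.0737) and with the mean of its probe sets, where the difference was -0.43 (0.297). Only 1 of its 4 tested probe sets, which ran from -1.29 to 1.04, was called. Fn1 had a second probe set at -1.61 that did not pass, and 1 of 4 Nrp1 probe sets did not pass either.

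Itga6, the laminin-binding integrin chain that Lgals8 can bind, was the list member that rose, at 1.88 ± 0.45 (adjusted p = 0.0269), and both of its probe sets were higher. It was lost without DsRed-positive 1 (adjusted p = 0.104), DsRed-positive 2 (0.0835), DsRed-negative 2 (0.0591), DsRed-negative 5 (0.0713) or both arrays numbered 1 (0.0652). The widely expressed ligands did not pass: the shared integrin chain Itgb1 differed by -0.48 ± 0.32, the lysosomal glycoproteins Lamp1 and Lamp2 by -0.07 ± 0.32 and -0.97 ± 0.38, and the growth factor receptor Egfr by -0.01 ± 0.50. Havcr2, the receptor of Lgals9, read 120 to 249 in DsRed-positive arrays, above their control level, and 3.94 to 192 in DsRed-negative arrays, under theirs. This bounds it at no less than 1.13-fold higher, and it did not pass (adjusted p = 0.147). Lag3 and Muc1 did not pass the filter. The summed fibroblast, leukocyte and endothelial markers given above were lower in DsRed-positive arrays, as were Fn1, Thy1, Ptprc and Nrp1. Of the single markers, 7 of 7, 6 of 11 and 3 of 6 were called lower, Ptprc itself being 1 of the 11. The part of these cell types was not tested.

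**Figure D4:**
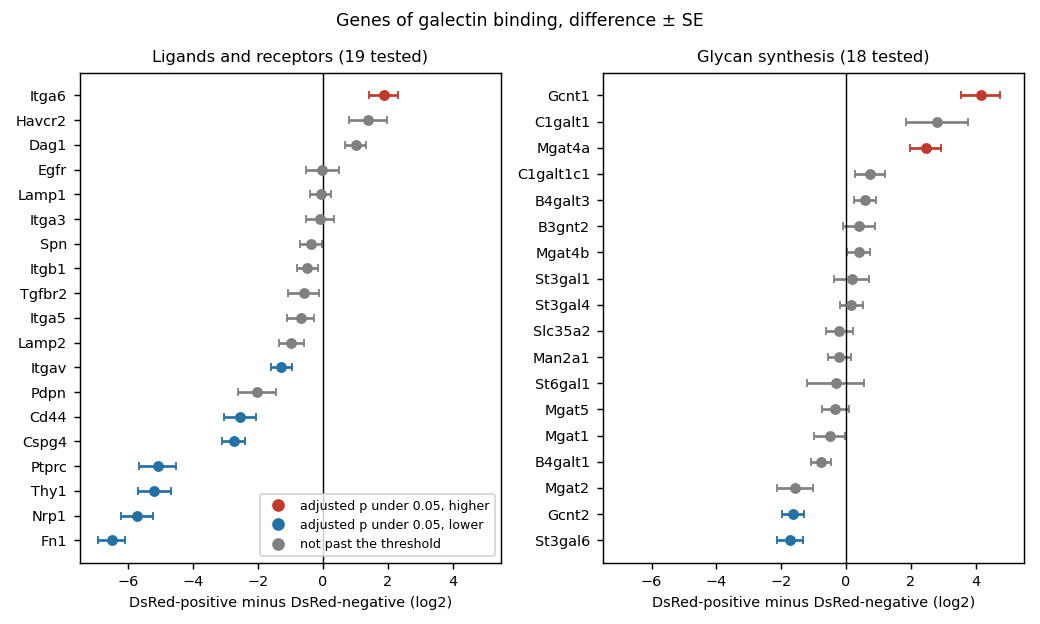
Difference ± SE in normalized log2 signal, DsRed-positive minus DsRed-negative (x axis), of 19 galectin ligands and receptors (left) and 18 genes of glycan synthesis (right), 1 brightest probe set per gene (rows), coloured by direction where the adjusted p was under 0.05. On the left 7 genes were lower and 1 higher, and on the right 2 were lower and 2 higher.

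Enzymes that build or mask the glycans bound by galectins were read as a list of 20 genes, of which 18 passed the filter. This list too was chosen with earlier results known, and its adjusted p values are to be read in the same way. In this list 2 rose and 2 fell, while 14 did not pass, where 9.21% of all genes tested were higher and 11.3% lower. The median difference was -0.02 against 0.04 over all genes tested. Gcnt1, which adds a branch to core O-glycans, was the largest increase: its signal was 13.05 ± 0.92 in DsRed-positive and 8.90 ± 0.88 in DsRed-negative arrays, a difference of 4.15 ± 0.61 (adjusted p = 0.00354 by limma), and both of its probe sets were higher. Mgat4a, a branching enzyme of N-glycans, rose by 2.46 ± 0.47 (adjusted p = 0.0113), on both of its probe sets, but was lost without both arrays numbered 1 (0.0943).

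Gcnt2, which branches chains of poly-N-acetyllactosamine, was lower, with a difference of -1.65 ± 0.34 (adjusted p = 0.0147), on 1 of its 3 tested probe sets. It was lost without DsRed-positive 5 (adjusted p = 0.0604), without both arrays numbered 1 (0.0939), with each array centred on its median (0.0757), and with the mean of all its probe sets, where the change was -0.66. St3gal6, a sialyltransferase that caps galactose, changed by -1.74 ± 0.40 (adjusted p = 0.0235), and all 3 tested probe sets were lower, at -3.57 to -1.74. The brightest carries the suffix of probe sets that may cross-hybridize, and without such probe sets the difference was -3.57. It was lost without DsRed-positive 1 (0.104), DsRed-positive 5 (0.0850), DsRed-negative 5 (0.0594) or both arrays numbered 1 (0.133). Mgat5, the branching enzyme most often tied to galectin-3 lattices, differed by -0.33 ± 0.42 and did not pass. St6gal1, whose sialic acid caps hinder binding of galectin-1, differed by -0.32 ± 0.87, with an SD of 1.74 over the DsRed-positive arrays.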

How the data were processed

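Probe set intensity of 6 arrays was used as deposited, on a linear scale. With the outer 2% of values cut at each end, all arrays had the same mean, 1500.01, so the authors had scaled them to a common level. GCOS is named by the submitters' processing notes; which version and settings were used is not given in the sources used here. Groups and the numbers 1, 2 and 5 came from the sample titles. Nothing in the labels ties the samples to separate animals. Sex-linked signal set the arrays numbered 1 apart from the others, so the spread is not technical alone, but how far it is one between animals is not given. Precision is limited by the number of arrays.

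The 20th percentile of the values, 39.84, was added to each before log2, and arrays were quantile normalized, because their medians spanned 0.74 on the log2 scale. After removal of 64 controls, 30175 probe sets whose mean exceeded the 33rd percentile (7.18) were tested. The offset shrinks ratios of dim probe sets. Symbols came from the platform annotation, updated through gene IDs in RefSeq: 34945 probe sets had 1 symbol, 932 several and 9160 none here. For each gene, the brightest of the probe sets annotated to it alone (mean over 6 arrays) was used. The files name no build, so the only coordinates printed are those of the RefSeq promoter windows.

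Differences were fitted with limma 3.58.1 in R 4.3.3 (lmFit and eBayes, two-sided, Benjamini-Hochberg over all tested probe sets, threshold 0.05), a procedure tested on simulated data. Errors of differences are standard errors of that fit. The control level was the 95th percentile of 27 Bacillus control probe sets on each array, and a fold is given as "at least" where all arrays of a group lay at or under it. Marker sums add the deposited signal of 1 probe set per gene.

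The galectin members and all lists were chosen with earlier results of these data known. Genes named were all members, the 4 genes of each list with the smallest p and the 3 nearest patterns of each member; others were chosen after their values were seen. Same-numbered arrays deviated together with correlations of 0.15, 0.04 and 0.05 for numbers 1, 2 and 5. These were weak but above those between different numbers, which were at most 0.01. Both arrays numbered 1 also shared their sex-linked signal, so paired samples remain possible. The labels state no analysis design, and the main fit did not pair the numbers. Alternatives covered scaling, offset, filter, moderation, the number as a block, left-out arrays and the choice of probe set.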

Additional observations from a re-analysis of the deposited data

How the results depend on the processing

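Lgals1 and Lgals9 kept their direction under all 17 alternatives run, with differences from -8.80 to -7.40 and from -3.73 to -1.67, and Lgals3 did so with 1.31 to 2.26. The median of all genes tested was 0.04, but -0.17 as deposited (no normalization) and 0.37 after centring arrays on their medians, so Lgals3 at 1.36 and 1.90 under these is to be read against those medians. The called probe sets were split into 2605 higher and 2600 lower, while higher ones made up 38.8% as deposited and 67.8% with median centring. Lgals3, the 1 galectin gene called higher, was not called (0 higher) as deposited or with the replicate block, which also ended the call of Itgav (adjusted p = 0.0695 by limma). With median centring, 4871 probe sets were higher (2605 otherwise), and the ligand list had 2 higher and the glycan list 4 higher and 1 lower. The ligand list also had 2 higher with the offset or the filter at the 50th percentile and with trend and robust estimation. Without both arrays numbered 1, 927 probe sets were higher and 1253 lower, 0 galectins were higher and 1 lower, the ligand list had 0 higher, and the glycan list 1 higher and 0 lower; this fit has fewer arrays, and no other pair was left out. Without 1 array at a time, higher probe sets numbered 1074 (without DsRed-positive 1) to 2613, lower ones 1735 to 2392, galectins called higher 0 to 1, ligand genes higher 0 to 1 and glycan genes lower 0 to 3. The cause of these changes was not tested. With the number as a replicate block, 2123 probe sets were higher and 2281 lower, against 2605 and 2600; deviations from the group means correlated best between arrays of the same number, a hint from the data and not from the design. Dim probe sets (Lgals2, Lgals7, Lgals12 and, in DsRed-positive cells, Lgals9) were limited by signal near the control level. The size of the Lgals1 difference shared this limit in part, as both of its probe sets lay under the control level in DsRed-positive 2.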
